A study of Homo sapiens with 2 samples.

Results

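In cells of the human breast cancer line 468, epithelioid by its labels, transcripts of 54 genes that fold, import and glycosylate proteins in the endoplasmic reticulum (ER) were compared between a knockdown of the antisense RNA THAP7-AS1 and a negative control, si-NC. The knockdown used a Smart Silencer, a purchased blend of silencing oligonucleotides, and RNA was taken at 48 h. Each condition is 1 RNA-seq library. The genotype label separates the conditions; the treatment label gives the silencer for each of them. The genes come from a list of 55, drawn up by function and matched by symbol to tables of 13017 genes. DERL3 is not analysed here, and each of the other 54 averaged at least 1 FPKM (fragments per kilobase of transcript, scaled to the library's total), so none was lost to the filter on low values. They belong to 9 groups by role. Without replicates no test could be made, and every difference below describes these 2 libraries.

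FPKM summed to 213442 in knockdown cells and 213888 in si-NC cells, but FPKM is already scaled to each library's total. The smallest steps of the values gave depth estimates of 11100000 fragments for knockdown and 10900000 for si-NC cells. Those steps were sought in a fixed window that bounds the estimate, so it cannot show that the depths were alike. The 6 epithelial markers were all listed and summed to 1933 FPKM in knockdown cells and 1815 in si-NC cells, and the 4 basal breast markers summed to 406 in knockdown and 472 in si-NC cells. Of these, EGFR was lower, at 258 FPKM in knockdown and 336 in si-NC cells, and KRT5, KRT14 and KRT17 were not. Of the luminal markers, GATA3 and FOXA1 were listed and summed to 39.4 FPKM in knockdown and 38.7 in si-NC cells, and ESR1 and PGR are not analysed here. The 3 listed mesenchymal markers summed to 3.17 FPKM in knockdown and 2.45 in si-NC cells. No value of THAP7-AS1 is used here, so its own level does not check the knockdown. Exons of 6 of the 54 ER genes are shared with another gene of the tables on the same strand, and those of 12 overlap one on the opposite strand, where reads cannot be told apart if the libraries were not stranded.

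Secretory and membrane proteins enter the ER through the SEC61 channel, lose their signal peptide, receive glycans from the oligosaccharyltransferase and fold with the help of chaperones and disulfide isomerases; those that fail are sent back to the cytosol for degradation. When unfolded proteins gather, the sensors IRE1 (the product of ERN1), ATF6 and PERK (the product of EIF2AK3) are activated. IRE1 and ATF6 are known mainly for inducing chaperones and degradation factors, and PERK for inducing ATF4 and, through it, DDIT3, which encodes the transcription factor CHOP. ATF4 and DDIT3 are also induced by kinases that respond to amino acid shortage or other stresses outside the ER. The sensors are switched on by cleavage and phosphorylation, and active IRE1 splices XBP1 mRNA. FPKM per gene does not measure these steps.

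The ER genes were not displaced with DDIT3. DDIT3 was at 8.78 FPKM in knockdown cells and 1.97 FPKM in si-NC cells. Its log2 ratio, taken as log2((knockdown FPKM + 1)/(control FPKM + 1)) as for all genes below, was 1.72, the 18th highest of the 10925 genes that averaged 1 FPKM or more. Counting error alone, at the estimated depth, gives that ratio an SE of 0.26. Exons of DDIT3 overlap those of MARS1 and MBD6 on the opposite strand, and whether the libraries were stranded is not stated. MARS1 was at 12.3 FPKM in knockdown cells and 10.6 in si-NC cells. On the same strand, DDIT3 shares exons with an annotated gene that has no value here.

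None of the 54 ER genes reached the ratio of DDIT3, which 0.165% of all genes did. The number at least 2-fold higher was 0 of 54, against 0.604% of all genes, and the number at least 2-fold lower was also 0 of 54, against 0.668%. Fewer than 1 member would be past any of these limits, that of DDIT3 included, at those shares. The zeros therefore do not set these genes apart from the rest. The zero on the lower side also depends on the 1 FPKM added to each value. With 0.1 added instead, 2 of 54 (MBTPS2 and SPCS3) were at least 2-fold lower, beside 126 of the 10925 genes. The highest ER gene, CREB3L2, had a log2 ratio of 0.52, lower than that of DDIT3 by a difference of 1.203.

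The members lay close to equality in both directions. Their median log2 ratio was -0.031, beside 0.015 for all genes, with 22 of 54 members above 0 (40.7%) and 53.1% of all genes above 0. That 53.1% is also the background for the counts above 0 of each list below. Ratios of 42 of the 54 (77.8%) were less than 1.2-fold from equality, beside 74.1% of all genes. The MAD-based SD, a spread computed from the median absolute deviation, was 0.15 over members and 0.21 over all genes. Together the 54 genes summed to 2325 FPKM in knockdown cells and 2330 in si-NC cells, which was 1.09% of all FPKM in each.

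**Figure D1:**
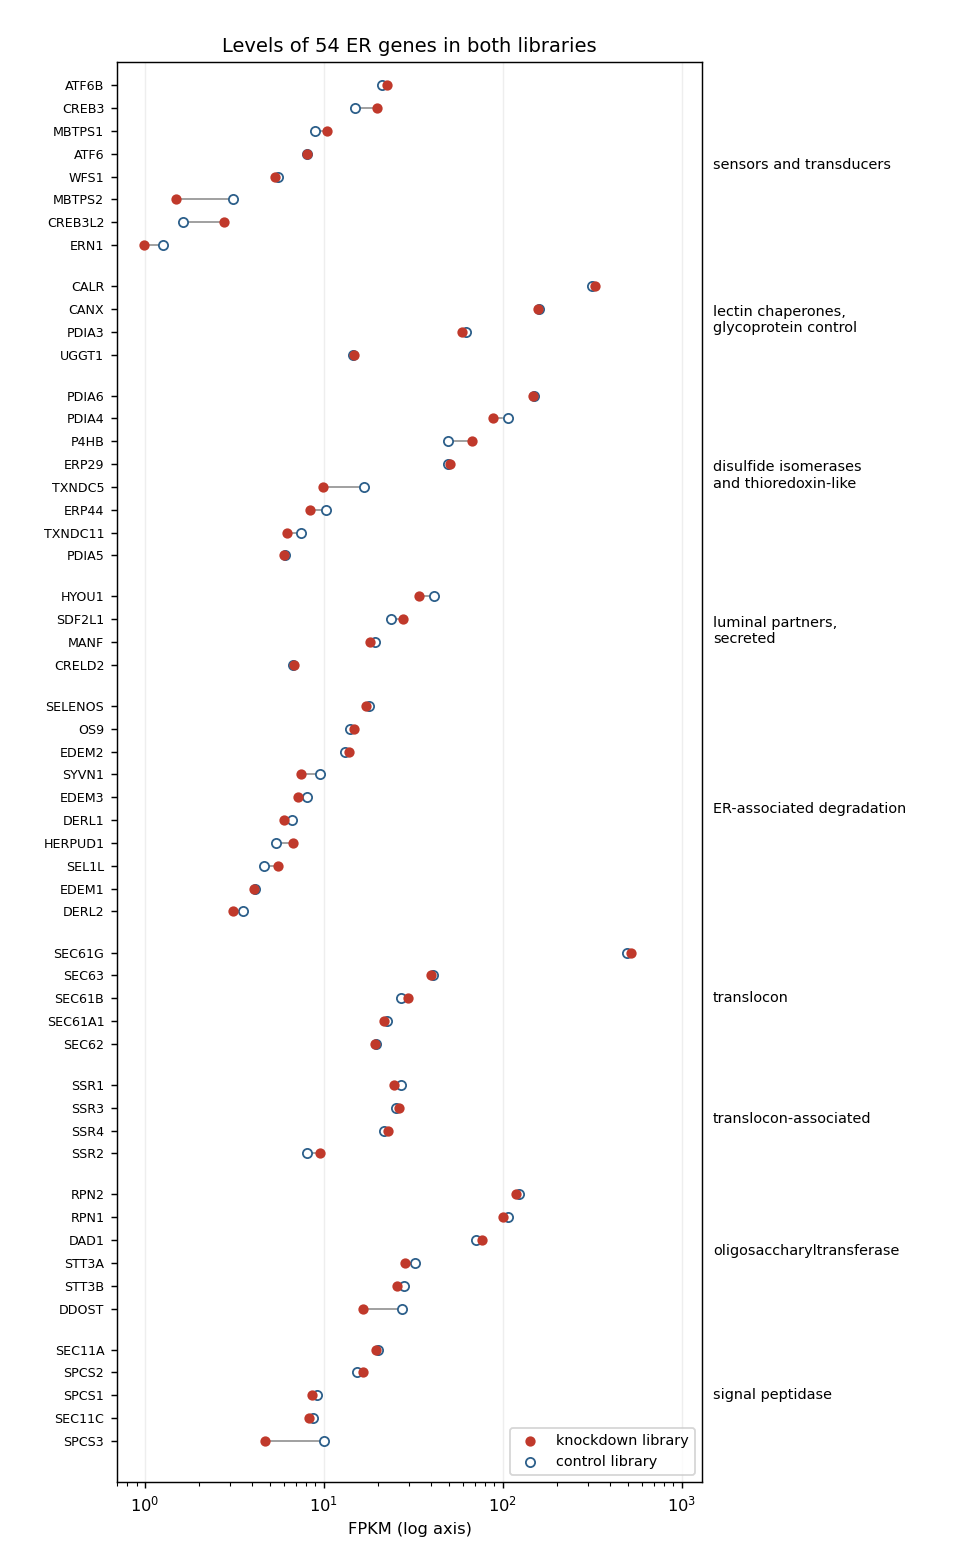
FPKM of the 54 ER genes (log axis), by role; filled red points are the knockdown library and open blue points the control library, 1 library each, joined by a line. Most pairs of points touch, and the widest gaps are those of SPCS3 (4.73 FPKM in knockdown and 9.99 in si-NC cells), MBTPS2, CREB3L2, TXNDC5 and DDOST.

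The exceptions were single subunits or enzymes and not whole groups. At a limit of 1.5-fold, 4 of 54 members were lower (7.41%), beside 2.46% of all genes, and 0 were higher, beside 2.98%. The 4 were SPCS3, MBTPS2, TXNDC5 and DDOST, which belong to 4 different groups. At the other end stood CREB3L2, P4HB, CREB3 and HERPUD1, none of them past 1.5-fold on this scale. The counts depend on the pseudocount. With 0.1 in place of 1, CREB3L2 had a log2 ratio of 0.73 and was past the limit. Then 1 member was higher and 4 were lower. With 5, 0 were higher and SPCS3 was the 1 member lower. The shares of all genes past 1.5-fold were taken with a pseudocount of 1 only. The counts with 0.1 and 5 therefore have no background here and do not set members apart.

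**Figure D2:**
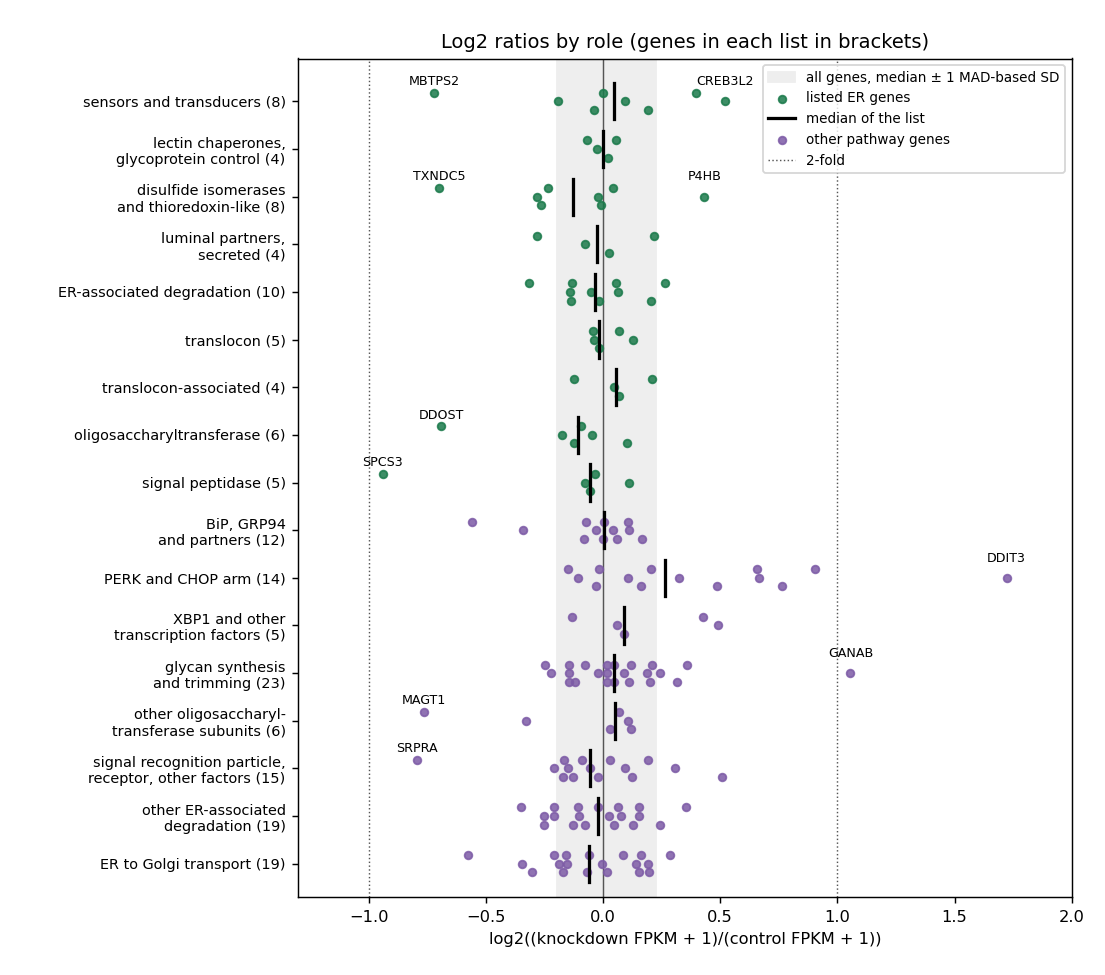
Log2 ratio of each gene (horizontal axis) by list, with green points for the 54 ER genes, purple points for other genes of the pathway, black bars for list medians, dotted lines at 2-fold, and a grey band for the median of all genes ± 1 MAD-based SD. The 9 green medians run from -0.13 to 0.057 and lie inside the band, while that of the PERK and CHOP arm is at 0.26.

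Among the sensors and transducers, the stress sensors themselves showed no common direction. ATF6, whose fragment becomes a transcription factor after cleavage in the Golgi, was at 8.12 FPKM in both libraries. Its relative ATF6B was at 22.7 FPKM in knockdown cells and 21.2 in si-NC cells, for a log2 ratio of 0.093. ERN1, which carries the kinase and RNase that splices XBP1 mRNA, was the least abundant member, at 0.987 FPKM in knockdown and 1.27 in si-NC cells, with a log2 ratio of -0.19 and a counting SE of 0.11. Both ATF6 genes were thus within 1.2-fold of equality, and the difference of ERN1 was less than 2 counting SEs from 0.

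The site proteases that cleave ATF6 went opposite ways. MBTPS1, the site-1 protease, was at 10.4 FPKM in knockdown cells and 8.99 in si-NC cells. MBTPS2, the site-2 protease, was at 1.49 FPKM in knockdown and 3.11 in si-NC cells, for a log2 ratio of -0.72 with a counting SE of 0.13. It ranked 171st from the lowest of 10925 genes, and genes at its level of 2 to 5 FPKM had a MAD-based SD of 0.23. MBTPS2 shares exons on the same strand with YY2, which was at 1.13 FPKM in knockdown and 0.914 in si-NC cells.

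Membrane-bound transcription factors that the same proteases release were the highest of this group. CREB3L2 was at 2.79 FPKM in knockdown cells and 1.64 in si-NC cells, for a log2 ratio of 0.52 with a counting SE of 0.10 and the 434th highest of all genes. CREB3 was at 19.96 FPKM in knockdown and 14.93 in si-NC cells, for a log2 ratio of 0.40 with a counting SE of 0.10. Exons of CREB3 overlap those of GBA2 and of TLN1 on the opposite strand. TLN1 was more abundant, at 27.5 FPKM in knockdown and 25.8 in si-NC cells. WFS1, which encodes the ER membrane glycoprotein wolframin, was at 5.38 FPKM in knockdown and 5.56 in si-NC cells. The 8 genes had a median log2 ratio of 0.047, with 5 above 0.

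The lectin chaperones and their partners were the steadiest group of folding genes. CALR, encoding calreticulin, was at 328 FPKM in knockdown cells and 316 in si-NC cells. CANX, encoding the membrane-bound calnexin, was at 157 FPKM in knockdown and 160 in si-NC cells. Both hold glycoproteins that carry a single glucose, and both were within 1.2-fold of equality. UGGT1, which puts that glucose back on unfolded glycoproteins, was at 14.9 FPKM in knockdown and 14.6 in si-NC cells. PDIA3, the disulfide isomerase that works with them, was at 59.1 FPKM in knockdown and 62.1 in si-NC cells. The 4 log2 ratios ran from -0.069 to 0.056.

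Disulfide isomerases and thioredoxin-like proteins were spread more widely, with 2 of 8 above 0 and a median of -0.13. P4HB, which encodes the archetypal protein disulfide isomerase and a subunit of collagen prolyl 4-hydroxylase, was at 67.2 FPKM in knockdown cells and 49.6 in si-NC cells, for a log2 ratio of 0.43 with a counting SE of 0.050. PDIA4 went the other way, at 87.9 FPKM in knockdown and 107 in si-NC cells, for a log2 ratio of -0.28. PDIA6 was at 148 FPKM in knockdown and 149 in si-NC cells. These 3 abundant isomerases therefore gave a higher, a lower and an equal value.

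The rest of the group was at or below equality, apart from ERP29. ERP29, a thioredoxin-fold protein without the active-site cysteine pair, was at 50.9 FPKM in knockdown cells and 49.4 in si-NC cells. ERP44, which retrieves client proteins from the early secretory pathway, was at 8.43 FPKM in knockdown and 10.3 in si-NC cells. TXNDC11 was at 6.22 FPKM in knockdown and 7.49 in si-NC cells. PDIA5 was the nearest to equality of these less abundant genes, at 5.99 FPKM in knockdown and 6.10 in si-NC cells, and it shares exons with SEC22A.

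TXNDC5, a member with thioredoxin domains, was at 9.92 FPKM in knockdown cells and 16.7 in si-NC cells, for a log2 ratio of -0.70 with a counting SE of 0.093. Its exons are also those of the readthrough gene BLOC1S5-TXNDC5, to which the tables give more FPKM, 35.1 in knockdown cells and 72.9 in si-NC cells, for a log2 ratio of -1.04. Both were lower in knockdown cells. Summed, the pair had 45.0 FPKM in knockdown and 89.7 in si-NC cells, for a log2 ratio of -0.98. The direction of the sum follows from its parts and adds no evidence. BLOC1S5 was at 7.79 FPKM in knockdown and 11.0 in si-NC cells. The sum was formed after the values of TXNDC5 had been seen.

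Luminal chaperone partners and secreted ER stress proteins had ratios on both sides of 0. HYOU1, a large HSP70-like protein that acts as nucleotide exchange factor for BiP, was at 34.1 FPKM in knockdown cells and 41.6 in si-NC cells, for a log2 ratio of -0.28. SDF2L1, a partner of ER DNAJ proteins, was at 27.9 FPKM in knockdown and 23.9 in si-NC cells, for a log2 ratio of 0.22 with a counting SE of 0.13. Both genes are known to be induced by ER stress, and they lay on opposite sides of equality. MANF was at 18.2 FPKM in knockdown and 19.3 in si-NC cells. CRELD2 was at 6.85 FPKM in knockdown and 6.73 in si-NC cells, and it overlaps ALG12 on the opposite strand. Both encode proteins that stressed cells secrete.

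The central chaperones, which are not among the 54, were as flat. HSPA5, encoding BiP, a standard mRNA marker of the unfolded protein response, was at 86.0 FPKM in knockdown cells and 85.7 in si-NC cells. HSP90B1, encoding GRP94, was at 163 FPKM in knockdown and 171 in si-NC cells. The list of BiP, GRP94 and their partners had a median log2 ratio of 0.0034, which was below 0 under each of the 4 other scalings. It had 7 of 12 above 0, beside 53.1% of all genes, and none at least 1.5-fold apart, beside 2.98% higher and 2.46% lower. Its largest ratio was that of DNAJB9, an IRE1 and XBP1 target that encodes the BiP co-chaperone ERdj4, at 5.93 FPKM in knockdown and 9.21 in si-NC cells. The list also holds SEC61A2, a second SEC61 alpha gene, at 1.10 FPKM in knockdown and 1.66 in si-NC cells, PPIB, an ER cyclophilin, at 148 in knockdown and 132 in si-NC cells, and SIL1, another exchange factor of BiP, at 9.53 in knockdown and 8.74 in si-NC cells.

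Some members carry in their promoters the letters through which ATF6 and XBP1 are known to act, and these are shown because such genes would be read first as reporters of that arm. RefSeq promoters of GRCh38.p14, 250 bases before to 50 after each start, were found for 49 of the 54. They were searched on both strands for the ER stress element (CCAAT, then 9 bases, then CCACG) and its second form (ATTGG, 1 base, CCACG). Either form was present, with 61 to 206 bases between match and start, in 6 of 49 members (12.2%) and in 0.136% of all 27305 promoters. Of the 6, 3 had the first form, which 0.0806% of all promoters hold, and 3 the second, which 0.0549% hold. Among the 8858 promoters of genes that averaged 1 FPKM or more, 0.271% held either form. The members were listed by function and include genes known to be induced by ER stress. Their share is therefore not independent of that choice. In the stretches below, each with 20 bases on either side and written along its gene, capitals mark the match; a match in the other direction begins with CGTGG. HSPA5, which is not one of the 54, is added for comparison.
CALR (chr19:12938364-12938422, plus strand): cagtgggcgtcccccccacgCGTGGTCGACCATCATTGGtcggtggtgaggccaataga
CANX (chr5:179698758-179698816, plus strand): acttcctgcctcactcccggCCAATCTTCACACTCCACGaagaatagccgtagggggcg
CRELD2 (chr22:49918534-49918592, plus strand): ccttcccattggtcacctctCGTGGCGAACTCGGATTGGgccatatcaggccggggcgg
HSPA5 (chr9:125241371-125241429, minus strand): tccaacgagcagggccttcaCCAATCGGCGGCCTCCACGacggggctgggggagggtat
HERPUD1 (chr16:56932005-56932055, plus strand): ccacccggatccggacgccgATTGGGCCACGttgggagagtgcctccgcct
HYOU1 (chr11:119057360-119057410, minus strand): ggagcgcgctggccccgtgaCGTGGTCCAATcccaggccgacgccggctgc
HYOU1 (chr11:119057254-119057304, minus strand): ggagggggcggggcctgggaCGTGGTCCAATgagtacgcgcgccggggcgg
SDF2L1 (chr22:21642094-21642144, plus strand): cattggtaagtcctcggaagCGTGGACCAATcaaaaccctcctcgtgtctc

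The 6 members with such an element had log2 ratios from -0.28 to 0.27. Their median was 0.040, with 4 of 6 above 0, and the median of the 43 other members with a promoter was -0.023, with 18 of 43 above 0. HYOU1, which holds the second form at 2 places, had the lowest of the 6 ratios, and HERPUD1, which holds it once, the highest. The core of the unfolded protein response element (TGACG followed directly by TGG) was in 0.795% of all promoters. Of promoters of genes that averaged 1 FPKM or more, 0.903% held this core, and of members 3 of 49 (6.12%). In HYOU1 it overlaps one of the second-form matches, and the others were SEC62, with a log2 ratio of -0.016, and TXNDC11, with -0.23. A match says only that the letters are present in this window.

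Genes of ER-associated degradation had a median log2 ratio of -0.034 over 10 measured members. Of these, 4 were above 0, beside 53.1% of all genes, and none was past 1.5-fold, beside 2.98% higher and 2.46% lower. HERPUD1, a membrane scaffold of this pathway that ER stress induces, was at 6.71 FPKM in knockdown cells and 5.42 in si-NC cells, for a log2 ratio of 0.27 with a counting SE of 0.13. The ubiquitin ligase HRD1, encoded by SYVN1, was at 7.47 FPKM in knockdown and 9.55 in si-NC cells, for a log2 ratio of -0.32. Its adaptor SEL1L was at 5.53 FPKM in knockdown and 4.66 in si-NC cells. Ligase and adaptor, which act as one complex, thus lay on opposite sides of equality. SYVN1 shares exons with the abundant gene FAU, which was at 125 FPKM in knockdown and 115 in si-NC cells.

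The remaining factors of this pathway differed little. The channel proteins DERL1 and DERL2 were both slightly lower, DERL1 at 6.002 FPKM in knockdown cells and 6.678 in si-NC cells. DERL2 was at 3.11 FPKM in knockdown and 3.53 in si-NC cells. The mannosidase-like proteins EDEM1, EDEM2 and EDEM3, which mark glycoproteins for removal, had log2 ratios of -0.019, 0.057 and -0.14. EDEM1, an XBP1 target in mammalian cells, was at 4.09 FPKM in knockdown and 4.16 in si-NC cells, EDEM2 at 13.8 in knockdown and 13.2 in si-NC cells, and EDEM3 at 7.21 in knockdown and 8.04 in si-NC cells. The lectin gene OS9 was at 14.70 FPKM in knockdown and 14.03 in si-NC cells. SELENOS, whose product recruits the ATPase VCP to the ER membrane, was at 17.2 FPKM in knockdown and 17.8 in si-NC cells. Of 19 other factors of this pathway, 9 were above 0, beside 53.1% of all genes. None was past 1.5-fold, beside 2.98% of all genes higher and 2.46% lower, so these counts do not set the factors apart. The largest ratios among them were those of ERLIN1 at 7.54 FPKM in knockdown and 5.68 in si-NC cells, ERLEC1 at 17.6 in knockdown and 22.7 in si-NC cells, ERLIN2 at 4.51 in knockdown and 5.57 in si-NC cells, and RNF5 at 33.6 in knockdown and 40.2 in si-NC cells.

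The SEC61 translocon was another narrow group, its 5 log2 ratios running from -0.044 to 0.13. SEC61A1, the channel itself, was at 21.8 FPKM in knockdown cells and 22.5 in si-NC cells. SEC61B was at 29.55 FPKM in knockdown and 26.99 in si-NC cells. SEC61G, the third subunit, was the most abundant of the 54 genes, at 518 FPKM in knockdown and 494 in si-NC cells. Per length of transcript it stood 17.5-fold above SEC61B in knockdown cells and 18.3-fold above it in si-NC cells, although the channel holds these subunits in equal number. SEC62 and SEC63 assist import after translation. SEC62 was at 19.3 FPKM in knockdown and 19.5 in si-NC cells. SEC63 was at 39.8 FPKM in knockdown and 41.04 in si-NC cells.

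The translocon-associated protein complex sits beside the channel and helps some signal sequences to insert. SSR1 was at 24.6 FPKM in knockdown cells and 26.9 in si-NC cells, and SSR2 at 9.52 in knockdown and 8.11 in si-NC cells. SSR3 was at 26.2 FPKM in knockdown and 25.3 in si-NC cells. SSR4 was at 22.9 FPKM in knockdown and 21.8 in si-NC cells and overlaps IDH3G on the opposite strand. SSR1 alone was below 0, with a log2 ratio of -0.13, and the median was 0.057. Upstream of the channel, the signal recognition particle, its receptor and other targeting factors had 6 of 15 genes above 0 and a median of -0.057. SRPRA, the receptor subunit that binds the particle, was the furthest from equality, at 29.5 FPKM in knockdown and 51.8 in si-NC cells, for a log2 ratio of -0.79 with a counting SE of 0.056. Exons of SRPRA overlap those of FOXRED1 and FAM118B on the opposite strand. SRP19 was at 20.9 FPKM in knockdown and 14.4 in si-NC cells, CAMLG at 17.2 in knockdown and 13.7 in si-NC cells, and TRAM1 at 21.95 in knockdown and 25.54 in si-NC cells. SRPRA was the 1 gene of the 15 past 1.5-fold, on the lower side, where 2.46% of all genes were.

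Subunits of the oligosaccharyltransferase, which transfers the glycan to asparagine, were below equality in 5 of 6 cases, with a median log2 ratio of -0.11. DDOST was at 16.6 FPKM in knockdown cells and 27.4 in si-NC cells, for a log2 ratio of -0.69 with a counting SE of 0.089 and the 196th lowest of all genes. On the same strand, DDOST shares exons with an annotated gene that has no value here. The ribophorin gene RPN1 was at 100.4 FPKM in knockdown and 107.2 in si-NC cells, and RPN2 was at 119 FPKM in knockdown and 123 in si-NC cells. All 3 are shared by both forms of the enzyme, and DDOST was the only one past 1.5-fold. DAD1, also shared, was at 76.5 FPKM in knockdown and 71.2 in si-NC cells.

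The catalytic subunits followed the ribophorins more than DDOST. STT3A, which acts on chains as they enter, was at 28.4 FPKM in knockdown cells and 32.3 in si-NC cells. STT3B, which acts on sites that were missed, was at 25.8 FPKM in knockdown and 28.2 in si-NC cells. Their log2 ratios were -0.18 and -0.12. STT3A shares exons with CHEK1, which was at 8.62 FPKM in knockdown and 9.44 in si-NC cells. RPN2 stood 7.15-fold above DDOST in knockdown cells and 4.47-fold above it in si-NC cells, per length of transcript. Among 6 other subunits measured, MAGT1, an oxidoreductase subunit of the STT3B form, was at 8.414 FPKM in knockdown and 14.99 in si-NC cells, for a log2 ratio of -0.76 with a counting SE of 0.085. TUSC3, its alternative in that form, was at 6.48 FPKM in knockdown and 8.38 in si-NC cells. Of the small subunits, TMEM258 was at 6.40 FPKM in knockdown and 5.82 in si-NC cells, and OST4 was at 73.4 FPKM in knockdown and 68.1 in si-NC cells.

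Signal peptidase, which removes the signal peptide, held the lowest member. SPCS3 was at 4.73 FPKM in knockdown cells and 9.99 in si-NC cells, for a log2 ratio of -0.94, which is 1.92-fold lower on the FPKM + 1 scale. The counting SE was 0.097, the MAD-based SD of genes at 5 to 10 FPKM was 0.22, and the gene ranked 88th from the lowest of 10925. The other accessory subunits stood nearer to equality, SPCS1 at 8.62 FPKM in knockdown and 9.15 in si-NC cells. SPCS2 was at 16.6 FPKM in knockdown and 15.3 in si-NC cells. Of the catalytic subunits, SEC11A was at 19.6 FPKM in knockdown and 20.1 in si-NC cells, and SEC11C at 8.33 FPKM in knockdown and 8.70 in si-NC cells. Without SPCS3 the group ran from -0.078 to 0.11.

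Synthesis and trimming of the glycan itself had a median log2 ratio of 0.045, with 15 of 23 genes above 0. The exception was GANAB, the catalytic subunit of glucosidase II, which trims glucose so that calnexin and calreticulin can bind. It was at 51.1 FPKM in knockdown cells and 24.1 in si-NC cells, for a log2 ratio of 1.06 with a counting SE of 0.055. It was the 53rd highest of all genes and the only one of the 23 at least 1.5-fold apart. Of all genes, 2.98% were at least 1.5-fold higher and 2.46% lower. DPM3 was at 62.4 FPKM in knockdown and 48.5 in si-NC cells, and DPAGT1, which begins the glycan, at 6.21 in knockdown and 7.56 in si-NC cells. Among 19 genes of ER to Golgi transport, 8 were above 0 and the median was -0.059. MCFD2, which with LMAN1 forms a cargo receptor, was at 18.5 FPKM in knockdown and 28.1 in si-NC cells. SAR1A was at 13.9 FPKM in knockdown and 17.9 in si-NC cells, SEC23A at 4.16 in knockdown and 5.36 in si-NC cells, and SEC24A at 7.85 in knockdown and 6.27 in si-NC cells.

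Genes of the PERK and CHOP arm were uneven, with DDIT3, CHAC1, PPP1R15A, ATF3 and TRIB3 above the highest ER member and the rest within the range of the ER members. This list was drawn up with earlier results of these data known and includes DDIT3, so its direction is no independent evidence. Its median log2 ratio was 0.26, with 10 of 14 above 0, and without DDIT3 it was 0.20, with 9 of 13 above 0. Without DDIT3, 4 of 13 were at least 1.5-fold higher, against 2.98% of all genes, and 0 of 13 at least 1.5-fold lower, against 2.46%. CHAC1, which degrades glutathione, was at 2.34 FPKM in knockdown cells and 0.780 in si-NC cells. PPP1R15A, a phosphatase subunit that reverses the block on translation, was at 37.6 FPKM in knockdown and 21.7 in si-NC cells. ATF3 was at 3.16 FPKM in knockdown and 1.63 in si-NC cells, and TRIB3, a pseudokinase induced by ATF4 and CHOP, had a log2 ratio of 0.66 at 33.2 FPKM in knockdown and 20.7 in si-NC cells. DDIT4 followed with a log2 ratio of 0.49, at 61.8 FPKM in knockdown and 43.8 in si-NC cells. NUPR1 had a log2 ratio of 0.32 and SESN2 one of 0.20, while 4 of the 14 were below 0.

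The kinase and the factor at the head of the arm lay nearer to equality. EIF2AK3 was at 5.39 FPKM in knockdown cells and 5.87 in si-NC cells. ATF4, whose product is controlled mainly by translation, was at 280 FPKM in knockdown and 250 in si-NC cells, for a log2 ratio of 0.16. CEBPB, ERO1B and TNFRSF10B, with EIF2AK3 the 4 genes of the arm below 0, had log2 ratios of -0.030, -0.016 and -0.15. ERO1A, the oxidase that recharges disulfide isomerases and a known CHOP target, was at 6.34 FPKM in knockdown and 5.82 in si-NC cells, for a log2 ratio of 0.11. XBP1 was at 65.5 FPKM in knockdown and 46.3 in si-NC cells, for a log2 ratio of 0.49, and spliced and unspliced forms are not separated in these tables. CREB3L4 was at 6.01 FPKM in knockdown and 4.22 in si-NC cells, while NFYB and NFYA, subunits of the factor that binds CCAAT, differed little. NFYB was at 28.1 FPKM in knockdown and 30.9 in si-NC cells, and NFYA at 15.8 FPKM in knockdown and 14.8 in si-NC cells.

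**Figure D3:**
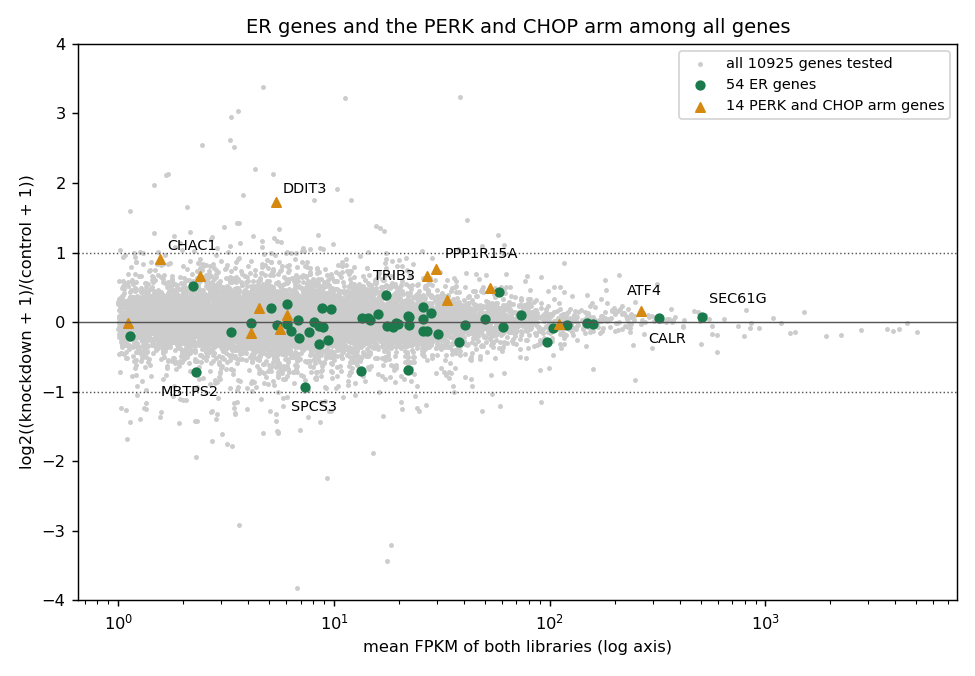
Log2 ratio against mean FPKM (log axis) for 10925 genes (grey), the 54 ER genes (green) and the 14 genes of the PERK and CHOP arm (orange triangles), with dotted lines at 2-fold. DDIT3, at 1.72, stands above the green points, which lie between -0.94 (SPCS3) and 0.52 at all levels.

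**Figure D4:**
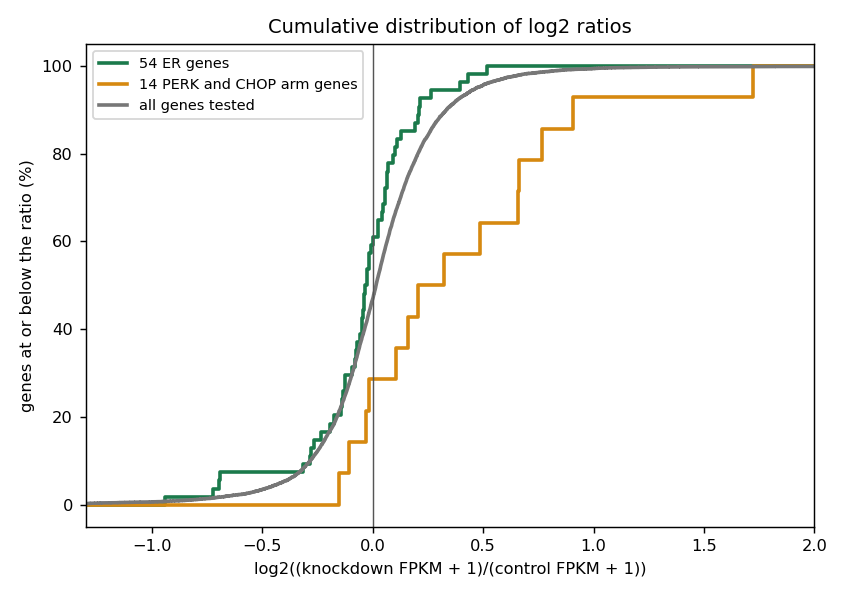
Percentage of genes at or below each log2 ratio for the 54 ER genes (green), the 14 genes of the PERK and CHOP arm (orange) and all genes tested (grey). The green curve has its median at -0.031 near the grey one at 0.015, with a step of 4 genes at its low end, while the orange curve has its median at 0.26.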

How the data were processed

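The authors deposited 1 table of FPKM for each library. Tools named in the submitters' processing notes are cutadapt, HISAT2 2.0.5 and StringTie, with the build hg19; other versions, the annotation, filters and strandedness are not stated there. FPKM scales by transcript length and library total, so a few abundant genes can shift the rest, and reads of overlapping models are divided by estimate. A symbol was found for 12903 of 13017 identifiers.

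Log2 ratios used a pseudocount of 1 FPKM, and the 10925 genes averaging 1 FPKM or more were kept. With 1 library per group no test was made; 2-fold and 1.5-fold limits stood in. GENCODE release 29 (GRCh38) was used by identifier only, for transcript lengths and exon overlaps. Depth was estimated from the lowest FPKM times length of single-transcript genes, between 70 and 130, over 17 genes (knockdown) and 12 (si-NC), a window set after earlier results were known. From this estimate, which the window bounds, the counting SE of a ratio used the length of principal transcripts. The SE is approximate and covers counting error only. Promoter sequences are RefSeq, GRCh38.p14. Protein sequences were not used here.

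All measured members are given, the 4 highest and 4 lowest ratios with counting error, and up to 4 genes with the largest absolute ratios of each of 8 other lists, beside genes that name a list; 1 of these genes is not reported here. All 14 genes of the PERK and CHOP arm are given. Members and lists were chosen with earlier results of these data known. Alternatives changed pseudocount, filter, scaling, fold, exon sharing and the use of the median. The calculation of ratios was run on simulated data with planted changes larger than those of any member. It does not cover differences as small as those reported for the members. Python 3.11.15, numpy 2.4.6, pandas 2.3.3 and matplotlib 3.10.9 were used.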

Additional observations from a re-analysis of the deposited data

How the results depend on the processing

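All alternatives were planned. The members' median, -0.031, ran from -0.053 to -0.017 over 10 alternatives, and the number above 0 from 21 to 22 of those measured. No member reached the ratio of DDIT3 under the 8 alternatives that gave a value, and 0 were at least 2-fold higher under any. So few of all genes pass these limits that such zeros do not set the members apart. The number at least 2-fold lower was 2 with a pseudocount of 0.1 (MBTPS2 and SPCS3), beside 126 of all 10925 genes. At 1.5-fold it was 4, beside 2.46% of all genes. The log2 ratio of DDIT3, 1.72, was 2.10 with a pseudocount of 0.1 and 0.98 with one of 5, since a larger pseudocount shrinks low genes. DDIT3 gave no value without the genes that share exons. That alternative dropped every gene sharing same-strand exons with any GENCODE gene, including partners without a value here, as for DDIT3. The counts of all genes, 66 higher and 73 lower, were 140 and 126 with a pseudocount of 0.1, 19 and 14 with one of 5, 31 and 36 at a mean of at least 5 FPKM, 36 and 44 without genes sharing exons, 326 and 269 at 1.5-fold and 20 and 15 at 3-fold. Without genes sharing exons, 2 other oligosaccharyltransferase subunits and 3 targeting factors were above 0, over fewer genes. Of 473 values of single members, 469 stayed within the spread of genes of similar level and 4 did not; ATF6, at equality, was the 1 member to change sign. The mean differed in sign from the median for the translocon (0.019), for BiP, GRP94 and their partners (-0.049) and for the other oligosaccharyltransferase subunits (-0.13). At a mean of at least 5 FPKM the medians of ER-associated degradation and of its other factors became 0.0036 and 0.0016. Under the 4 changes of scaling that of the BiP list lay between -0.026 and -0.012, and without genes sharing exons that of the other oligosaccharyltransferase subunits was -0.15. No paired analysis was possible because each group has 1 library. By counting SE, depth limits SPCS1, SSR2 and CRELD2 most, at 0.20, 0.19 and 0.18.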

Other observations

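SEC61G, the most abundant of the 54 ER genes, lies next to EGFR on chromosome 7 in the RefSeq gene table of GRCh38.p14, counting protein-coding genes. EGFR was at 258 FPKM in knockdown cells and 336 in si-NC cells. The next genes on that side are LANCL2 and VOPP1. LANCL2 was at 234 FPKM in knockdown and 222 in si-NC cells, and VOPP1 was at 210.0 FPKM in knockdown and 152.8 in si-NC cells. All 4 were thus above 150 FPKM in both libraries. Their log2 ratios differed, with 0.070 for SEC61G, -0.38 for EGFR, 0.075 for LANCL2 and 0.46 for VOPP1. The neighbours were looked up after the level of SEC61G had been seen.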
